A study of Saccharomyces cerevisiae with 2 samples.

Results

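The genes described here shape mitochondria: MIC10, MIC12, MIC19, MIC26, MIC27 and MIC60, which encode the subunits of the cristae organising complex MICOS, the fusion genes FZO1 and MGM1, and the fission genes DNM1 and FIS1. They were chosen by name, with earlier results of these data known, and all 10 had values among the 5598 genes of the table. RNA of Saccharomyces cerevisiae, budding yeast, supplied with 3% pyruvate was set against RNA of yeast supplied with 2% glucose on 2 arrays of 2 colours, with glucose in Cy5 on array 1 and in Cy3 on array 2. The labels give no strain, genotype, medium or growth phase, so what both conditions share beyond the species is not known. They also leave unsaid whether each array had cultures of its own, so the p-values speak of array-to-array spread alone, and that spread may be technical.

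Cristae are folds of the mitochondrial inner membrane that hold the respiratory chain and the ATP synthase. MICOS sits at the narrow junctions where the folds meet the inner boundary membrane, bends the membrane there and ties it to protein complexes of the outer membrane. Mitochondria also fuse through dynamin-like GTPases of the outer and inner membranes and divide through a further dynamin that constricts them from outside. Budding yeast on abundant glucose ferments and keeps the formation of respiring mitochondria low, whereas pyruvate is oxidised in mitochondria.

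Every value below is a log2 ratio of pyruvate over glucose, taken from the authors' deposited log ratios with array 1 multiplied by -1, and means are given ± SD with n = 2 arrays. Which channel stands on top in the deposited ratio is not stated, and Cy5 over Cy3 is only likely, as the usual convention. If it were Cy3 over Cy5, all signs here would be the other way round. PCK1 and ADH2, genes that glucose is known to repress, stood at 4.30 ± 0.05 and 6.06 ± 0.31 when read this way. The median over all genes was not 0 but 0.10, with 0.18 on array 1 and 0.02 on array 2, and the values of the mitochondrial genes are to be read against that shift. A ratio carries no level, so the comparisons between genes below are of changes and not of transcript amounts. In RNA of a whole culture, a change in the share of cells that express a gene and a change in the amount per cell cannot be told apart.

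All 10 genes were higher in pyruvate by limma's test (adjusted p between 0.0115 and 0.0448 over all 5598 genes), on both arrays, with a median of 1.59 (3.01-fold). By the same test 27.1% of all genes were higher in pyruvate, while 17.2% were lower and 44.3% changed in either direction. These shares depend on the shift of the median. They stand for 1519 genes higher and 963 lower, against 1392 and 1261 with each array centred on its median. At least 2-fold higher on both arrays were 8 of the 10 genes, against 12.7% of all genes, and at least 4-fold higher on both arrays were 4 of the 10, against 4.0% of all genes. MIC10 and MIC12 reached 4-fold narrowly, with 2.08 each on array 1, where the median over all genes was 0.18. With that median taken off, neither would reach it. The fold counts were chosen after the data were seen. At least 2-fold lower on both arrays were 0 of the 10, against 4.81% of all genes. By role, and as a description with no test of the differences, the MICOS genes had ratios between 1.39 and 2.92, the fission genes both stood at 1.32, and the fusion genes lay at 0.49 and 0.88.

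**Figure D1:**
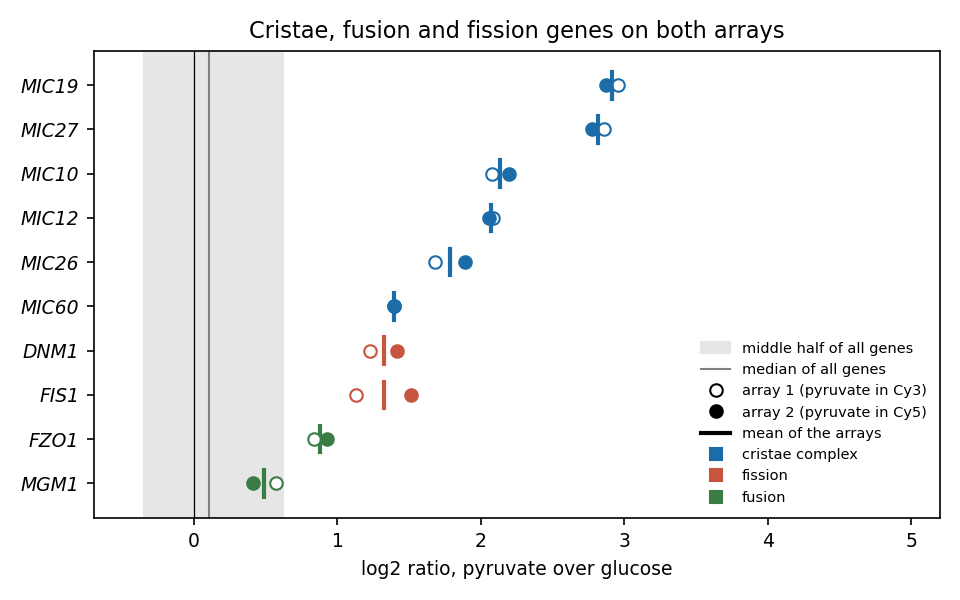
Log2 ratio of pyruvate over glucose (x axis) for each gene (y axis) on array 1 (open circles) and array 2 (filled circles), with the mean of the arrays as a bar, coloured by role. The grey band is the interquartile range of the mean ratios of all 5598 genes and the grey line their median of 0.10. The 6 cristae complex genes lie highest and MGM1, at 0.49, is the gene that lies within the band.

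MIC19 (systematic name YFR011C), a peripheral subunit bound to MIC60, had the highest ratio, with 2.96 on array 1 and 2.87 on array 2 (mean 2.92 ± 0.06, 7.54-fold, limma adjusted p = 0.0115). It ranked number 108 of 5598 genes and was read by 1 feature. MIC27 (YNL100W), a subunit of the apolipoprotein O family that stabilises MIC10 assemblies, had 2.86 and 2.78 (mean 2.82 ± 0.06, 7.05-fold, limma adjusted p = 0.0115). MIC19 exceeded MIC27 by 0.10 on each array, a gap smaller than the 0.125 between the 2 features of MIC60 on array 1, so their order is tentative.

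MIC10 (YCL057C-A), the small core subunit whose oligomers bend the membrane, had 2.08 and 2.19 (mean 2.14 ± 0.08, 4.40-fold). MIC12 (YBR262C), which links the MIC60 and MIC10 modules in yeast, had 2.08 and 2.06 (mean 2.07 ± 0.02, 4.20-fold). Values of MIC10 and MIC12 overlapped between the arrays, so their order was not resolved. MIC26 (YGR235C), the other apolipoprotein O-like subunit, had 1.68 and 1.89 (mean 1.78 ± 0.15, 3.44-fold). The ratio of MIC27 was thus above that of its relative MIC26 by 1.18 on array 1 and 0.89 on array 2, a mean of 1.04 ± 0.21. MIC60 (YKR016W), the core subunit with a large domain in the intermembrane space, had the lowest ratio of the complex, 1.39 on both arrays (2.63-fold). MIC10 lay above MIC60 by 0.69 and 0.80. These genes were read by different features, and whether the gap lies in the transcripts or in the features was not tested. For none of these gaps can an exact sign-flip test over the arrays go below p = 0.5, and they are given as descriptions. The limma adjusted p of MIC10, MIC12, MIC26 and MIC60 lay between 0.0118 and 0.0127.

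DNM1 (YLL001W), the dynamin that constricts mitochondria at division, had 1.23 on array 1 and 1.42 on array 2 (mean 1.32 ± 0.13, 2.50-fold, limma adjusted p = 0.0151). FIS1 (YIL065C), its tail-anchored outer membrane receptor, had 1.13 and 1.51 (mean 1.32 ± 0.27, 2.50-fold, limma adjusted p = 0.0201). FIS1, read by 1 feature, had the widest gap between arrays of the 10 genes. Which of the fission genes ranked higher depended on the array, and DNM1 also overlapped with MIC60.

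FZO1 (YBR179C), the mitofusin of the outer membrane, had 0.84 and 0.92 (mean 0.88 ± 0.06, 1.84-fold, limma adjusted p = 0.0185). MGM1 (YOR211C), the dynamin of inner membrane fusion, had 0.57 and 0.41 (mean 0.49 ± 0.11, 1.40-fold, limma adjusted p = 0.0448). MGM1 was higher on both arrays, but its call ended when each array was centred on its median (0.39, limma adjusted p = 0.0828, with a range of 0.0422 to 1 over the moderated alternatives). The upper end of this range, and of the like ranges below, is from the test against a minimum of 1.5-fold, which asks another question. Among the other moderated settings the highest limma adjusted p of MGM1 was 0.0851, with the arrays centred and scaled. FZO1 exceeded MGM1 by 0.27 on array 1 and 0.51 on array 2.

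Averaged over their genes, the MICOS ratios exceeded the fusion ratios by 1.47 on array 1 and 1.53 on array 2 (a 2.83-fold difference of the mean ratios), and the fission ratios by 0.996 and 0.73 (mean 0.86 ± 0.19). Fission exceeded fusion by 0.48 and 0.80 (mean 0.64 ± 0.23). Within each array the fusion genes lay below all the others, and on array 1 the fission genes lay below all MICOS genes. On array 2 MIC60, at 1.39, lay just below DNM1 (1.42) and FIS1 (1.51). Of the 9 neighbouring pairs in the order of the 10 genes, 6 had array values that did not overlap and 3 did overlap.

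For the 8 genes with 2 features, the features differed by at most 0.13 on an array, and their median gap was 0.05 on array 1 and 0.03 on array 2, like the 0.05 on each array over 3587 genes with several features. The median SD between arrays was 0.07 for the 10 genes and 0.13 for all genes, and FIS1 (0.27), MIC26 (0.15) and DNM1 (0.13) lay above the median of all genes. Over all genes 4679 of 5598 had the same sign on both arrays, and 10 of the 10 genes did. None of the 18 features behind the 10 genes lay at a ratio of small whole numbers on either array. Such ratios were taken as a mark of dim features. The deposited values hold no intensities, so the brightness of these features was not tested. Half-differences of the arrays, which hold any lean to a dye, lay between -0.08 and 0.19 for these genes. As each dye order was run on 1 array, dye and array cannot be told apart.

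**Figure D2:**
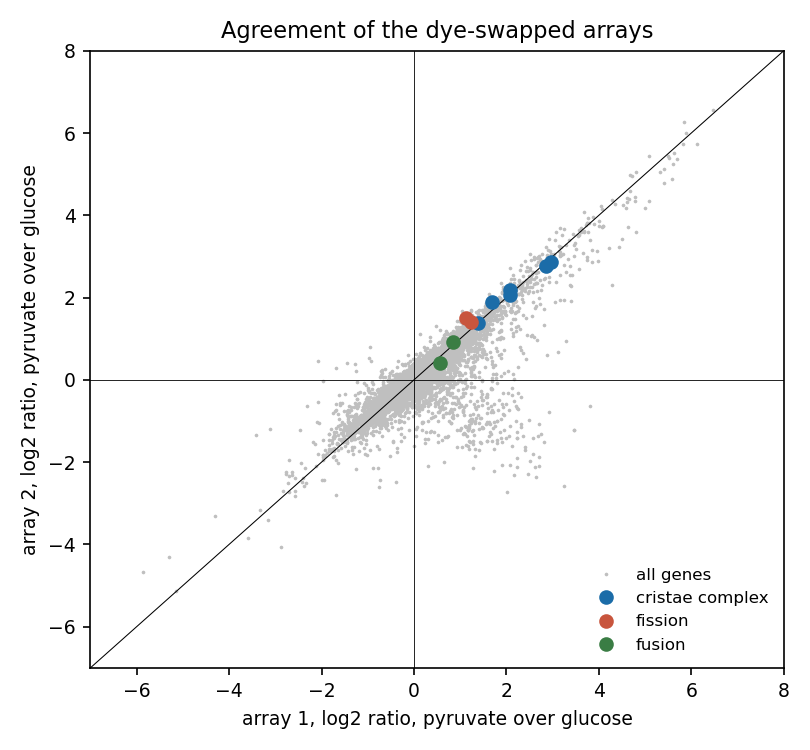
Log2 ratio of pyruvate over glucose on array 1 (x axis) against array 2 (y axis) for all 5598 genes (grey) and the 10 genes coloured by role, with the line of equal values. The 10 genes lie close to the line in the upper right, from MGM1 (0.57 and 0.41) to MIC19 (2.96 and 2.87), with the same sign on both arrays, as for 4679 of the 5598 genes.

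The genes that act with these 10 did not all follow them. Of 49 other measured genes of mitochondrial architecture, in 9 lists by role, limma called 30 higher and 2 lower and left 17 below the threshold. Their median was 0.69, against 0.10 over all genes, of which 27.1% were higher and 17.2% lower. The counts per list below are to be read beside these shares, and in lists this short a count of 0 lower says little.

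Among the partners of fission, MDV1, the adaptor that joins FIS1 to DNM1, had 1.19 and 1.32 (mean 1.25 ± 0.09, limma adjusted p = 0.0146), close to the fission genes themselves. CAF4, its paralogue and alternative adaptor, had -0.39 and -0.64 (mean -0.52 ± 0.18) and did not pass (limma adjusted p = 0.0551), though it passed as lower once each array was centred on its median (-0.62, limma adjusted p = 0.0193, with a range of 0.0193 to 1 over the moderated alternatives). MDV1 lay above CAF4 by 1.58 on array 1 and 1.96 on array 2. MDM36, which promotes the attachment of mitochondria to the cell cortex, rose by 2.03 ± 0.21, and NUM1, the cortical anchor itself, by 0.86 ± 0.07. VPS1, a dynamin of vacuoles and peroxisomes, stood at 0.31 ± 0.10 and did not pass. Of these 5 genes, 3 were higher and 0 lower.

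Of the 3 partners of fusion, UGO1, which links FZO1 and MGM1, rose by 0.77 ± 0.13. PCP1, the rhomboid protease that cleaves MGM1 protein, stood at 0.30 ± 0.02, and MDM30, the F-box protein that directs FZO1 protein to degradation, at -0.08 ± 0.14, and neither passed limma's test. The fusion partners had a median of 0.30 and the fission partners a median of 0.86. These lists hold only 3 and 5 genes, and their ranges overlapped (-0.08 to 0.77 and -0.52 to 2.03). The difference was not tested.

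The ATP synthase subunits e and g, which join the enzyme into dimers along cristae edges, had ratios in the range of the MICOS genes. ATP20, subunit g, had 2.80 on array 1 and 2.45 on array 2 (mean 2.62 ± 0.25), and TIM11, subunit e, had 2.26 and 2.10 (mean 2.18 ± 0.12). Both passed limma's test.

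Of the outer membrane proteins that MICOS contacts, 3 of 6 genes were higher, 0 lower and 3 did not pass. POR1, the porin, had 2.40 and 2.88 (mean 2.64 ± 0.34), SAM37, of the sorting and assembly machinery, rose by 1.10 ± 0.08 and TOM22, an import receptor, by 0.74 ± 0.10. SAM50, the barrel protein of that machinery, stood at 0.09 ± 0.14, SAM35 at 0.04 ± 0.19 and TOM40, the import channel, at 0.29 ± 0.21. MIC60 exceeded SAM50 by 1.21 on array 1 and 1.40 on array 2.

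Within the inner membrane, 3 of 4 measured genes for membrane shape and MICOS stability were higher. MDM32 rose by 1.97 ± 0.06, AIM24, needed for an intact MICOS, by 1.73 ± 0.19 and MDM38 by 1.03 ± 0.24, while MDM31, which acts together with MDM32, stood at -0.25 ± 0.13 and did not pass. Of 8 prohibitins and inner membrane proteases, 5 were higher and 0 lower. PHB1 rose by 1.18 ± 0.08, MGR3 by 0.85 ± 0.30, OMA1 by 0.69 ± 0.13, PHB2 by 0.66 ± 0.03 and YTA12 by 0.55 ± 0.02. YTA12 forms the matrix-facing AAA protease with AFG3, which stood at 0.02 ± 0.04. YME1, the AAA protease facing the intermembrane space, stood at 0.06 ± 0.22 and MGR1, an adaptor of that protease, at 0.28 ± 0.30. The call of YTA12 ended when each array was centred on its median (limma adjusted p = 0.0576, with a range of 0.0295 to 1 over the moderated alternatives).

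Cardiolipin is the phospholipid particular to the inner membrane and binds many of its proteins. Of 10 genes for cardiolipin and phosphatidylethanolamine, 8 were higher, 1 was lower and PGS1 was not called, and the median was 1.25. CLD1, the deacylase that starts the remodelling of cardiolipin chains, had 4.09 on array 1 and 3.74 on array 2 (mean 3.92 ± 0.25, 15.1-fold), the largest ratio of the 49 genes. The lipid transfer gene UPS1 rose by 1.76 ± 0.17, its relative UPS2 by 1.76 ± 0.01 and MDM35, their shared partner, by 2.09 ± 0.01. CRD1, the cardiolipin synthase, rose by 0.88 ± 0.01. GEP4, the phosphatase of the pathway, rose by 0.47 ± 0.01 (limma adjusted p = 0.0385), a call that ended when each array was centred on its median (limma adjusted p = 0.103, with a range of 0.0374 to 1 over the moderated alternatives). PGS1, which makes the first committed intermediate, stood at 0.67 ± 0.27. PSD1, the mitochondrial phosphatidylserine decarboxylase, had -0.59 and -0.66 and fell by 0.63 on the log2 scale (SD 0.05, limma adjusted p = 0.0261).

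**Figure D3:**
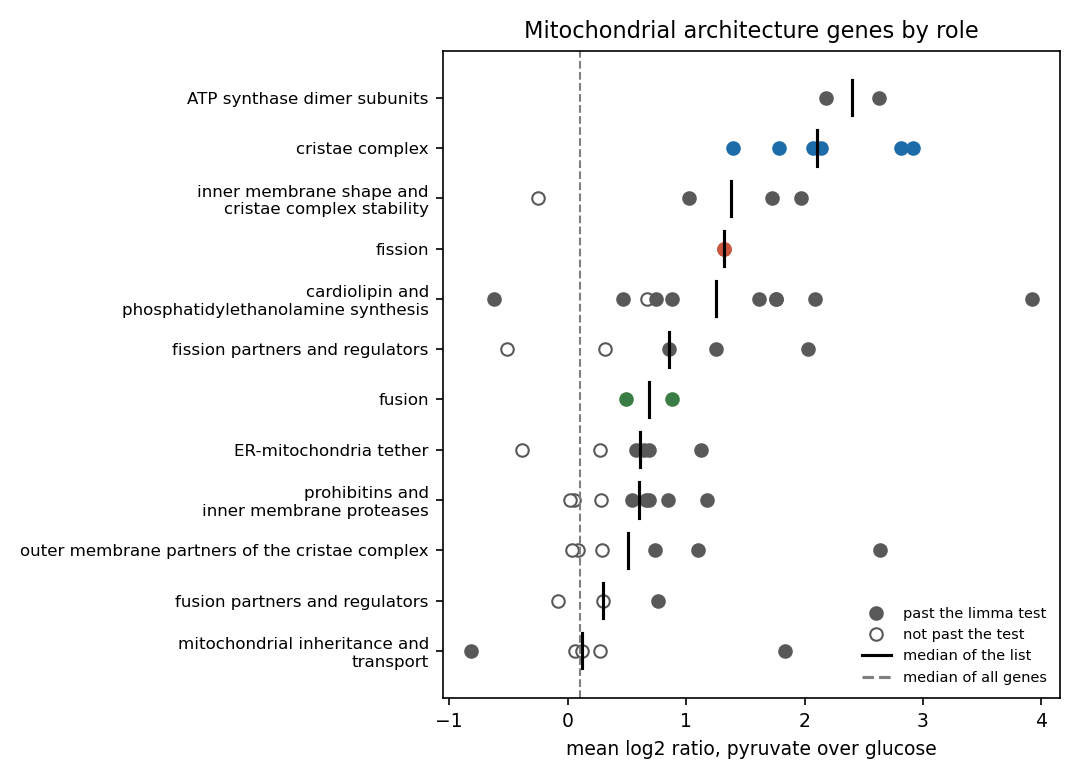
Mean log2 ratio of pyruvate over glucose (x axis) for each gene, in rows by role (y axis, ordered by median), with filled points past limma's test, open points not past it, black bars for row medians and a dashed line for the median of all genes. The ATP synthase dimer and cristae complex rows lie highest, at medians of 2.40 and 2.10, and the inheritance row lies lowest, at 0.12.

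Of 6 genes for the tether between the endoplasmic reticulum and mitochondria, 4 were higher and 0 lower, with MDM34 at 1.13 ± 0.06, MDM10 at 0.69 ± 0.22, MDM12 at 0.64 ± 0.21 and MMM1 at 0.58 ± 0.11. The call of MMM1 ended when the arrays were centred and scaled (limma adjusted p = 0.0540, with a range of 0.0336 to 1 over the moderated alternatives). GEM1, a regulatory GTPase of the tether, stood at 0.27 ± 0.38, and LAM6, a contact-site sterol transporter, at -0.38 ± 0.28, and neither passed. Among 5 genes of mitochondrial inheritance and transport, PUF3, whose RNA-binding protein binds messages for mitochondrial proteins, rose by 1.83 ± 0.01, and MYO2, the myosin that carries organelles into the bud, fell by 0.81 on the log2 scale (SD 0.09, limma adjusted p = 0.0206). MMR1 (0.28 ± 0.03) and YPT11 (0.06 ± 0.15), which attach mitochondria to that myosin, and JSN1 (0.12 ± 0.24) did not pass.

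The chromosomal neighbours of the 10 genes had other ratios. The adjacent protein-coding genes, by the RefSeq annotation of assembly R64, were measured for 19 of the 20 sides, and none overlapped a member of the group. Of these 19, limma called 3 higher and 2 lower, against 27.1% higher and 17.2% lower over all genes, and their median was 0.09. Of the 7 transcribed divergently from one of the 10 genes, 0 were higher and 1 was lower, STE4 beside MGM1 (-0.92 ± 0.19). Among these 7, YKR015C beside MIC60 had 2.17 on array 1 and -0.51 on array 2, and DCV1 beside MIC19 had 1.19 and -1.10. DTR1 beside FZO1 had 0.46 and -0.64. The arrays thus differed in sign for these genes, and their means say little. One adjacent gene was at least 2-fold higher on both arrays, SPG1 beside MIC26, at 3.06 ± 0.44.

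**Figure D4:**
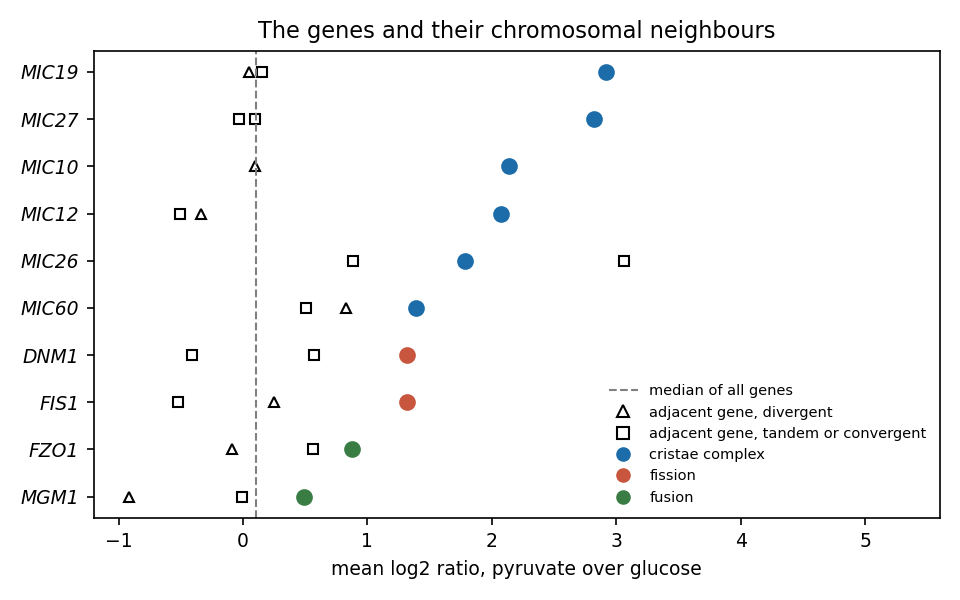
Mean log2 ratio of pyruvate over glucose (x axis) for each of the 10 genes (filled circles, coloured by role) and its adjacent genes (open triangles where divergent, open squares where tandem or convergent), with the median of all genes dashed. By their means, all adjacent genes but SPG1, at 3.06 in the row of MIC26, lie below the gene they neighbour. On array 1 YKR015C, at 2.17, lay above its neighbour MIC60.

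The genes nearest in ratio on the 2 arrays were sought in the whole table for the ends of the order. For MIC19 they were QCR7, a subunit of the cytochrome bc1 complex (2.99 on array 1 and 2.88 on array 2), MBR1 (2.90 on each array) and MAL33, a maltose activator gene with close relatives that its probes may also bind (3.01 and 2.81), at Euclidean distances of 0.03 to 0.09 log2 units. For MGM1 they were PTC7, a mitochondrial protein phosphatase, ILM1 and ARR1, at distances of 0.01 to 0.02. Within 0.2 log2 units lay 11 genes in the case of MIC19 and 324 in that of MGM1, so at the low end of the order many genes had like ratios.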

How the data were processed

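Per the labels, an Agilent low-input kit served to amplify and label total RNA, with dyes exchanged between the 2 arrays, whose number limits the precision. The authors' deposited values are log2 ratios, one per array for each of 10807 features. The base of the log was inferred: 935 values of array 1 equalled, to 3 decimals, log2 of some quotient of integers no larger than 10, and shifting the values by a constant gave at most 232. On array 2 the count peaked at a shift of 0.008, with 784 values against at most 401 at other shifts. How the authors scanned, corrected and scaled the arrays is not given in the sources used. As deposited, the arrays correlated at r = -0.81 over features of named genes and 0.86 over features without a gene. The medians as deposited were -0.29 and -0.08.

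The platform annotation named 1 gene for 9202 features, several for 0 and none for 1605. Current names were found by gene identifier for 9194. Array 1 was multiplied by -1 and features were averaged per gene. The test was limma 3.58.1 under R 4.3.3 (1 coefficient, 1 residual and 1.67 prior degrees of freedom), Benjamini-Hochberg adjusted across 5598 genes at a threshold of 0.05, with no dye term because none could be fitted beside the mean. The fit was tested on simulated data. Tables were made with pandas 2.3.3 and numpy 2.4.6 under Python 3.11.15, and figures with matplotlib 3.10.9. The 10 genes and the lists of other genes were chosen with earlier results of these data known. Named were the 10 genes, every gene of a list with at most 8 measured genes, the 3 highest and 3 lowest of a longer list, PCK1, ADH2, and the 3 genes nearest to the members with the highest and lowest ratio. CRD1, UPS2 and the adjacent genes were named after their values were seen. MDM33 and sequences of the genes are not analysed here, so the planned search of promoters for motifs was not made. No coordinates are printed, since the deposited files name no genome build, and the RefSeq table of assembly R64 was used only for names and adjacency.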

Additional observations from a re-analysis of the deposited data

How the results depend on the processing

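The 10 genes were called higher by limma with robust moderation. They were also called with dim features (at whole-number ratios on both arrays) left out and with the first feature of each gene. No feature of the 10 genes was among those left out as dim, so that setting could not change their values. The first-feature setting could not change those of MIC19 and FIS1, each read by 1 feature. With each array centred on its median or also scaled, 9 of 10 were called, and MGM1 did not pass. Tested against a minimum of 1.5-fold, 7 of the 10 passed, all but FZO1, FIS1 and MGM1. Without moderation, on 1 residual degree of freedom, 0 of the 10, 0 of the 49 listed genes and 10 of all 5598 genes passed, against 10, 32 and 2482 with it. Against 1.5-fold, 15 listed genes and 757 of all genes passed. The median of the 10 genes lay between 1.49 and 1.60 under the other scalings and summaries, and at 1.70 without replicate 1 and 1.54 without replicate 2. Genes at least 2-fold higher on both arrays numbered 7 of 10 after centring and 6 of 10 after scaling, a count chosen after seeing the data. Centring or scaling the arrays ended the calls of YTA12 and GEP4 too, scaling that of MMM1, and both brought CAF4 and PGS1 past the test. No direction that passed turned under any alternative run. Robust moderation, no moderation and the test against 1.5-fold leave the means as they are, so they could not turn a direction. Centring moved the mean of GEP4, the smallest in size of those called among the 10 and the 49 genes, only from 0.47 to 0.36. No paired analysis was possible because the arrays form 1 group, so no replicate number is shared between groups, and each ratio already sets pyruvate against glucose within an array.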
